A study of Mus musculus with 24 samples.

Results

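The phase II conjugation enzymes of mouse small intestinal organoids are described here across the loss and the chemical inhibition of CDK8 and CDK19. Members were all protein-coding genes whose symbol starts with Gsta, Gstm, Gstp, Gstt, Gsto, Gstk, Mgst, Ugt1a, Ugt2a, Ugt2b or Sult, a rule that uses names and no measured value. It gave 64 of 54146 genes in 11 families, of which 39 reached a mean of 10 raw counts over the 12 libraries of the genotype experiment and 38 over the 12 libraries of the inhibitor experiment. The other 25 stayed below that mean in both, and 15 of them, 12 of these Sult genes, were at 0 counts in all 24 libraries.

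RNA was sequenced from 8 groups of 3 libraries in 2 experiments that were normalised separately. The genotype experiment held WT, Cdk8-/-, Cdk19-/- and double knockout organoids, all kept for 7 days in 600 nM 4-hydroxytamoxifen. Per the study's methods, Cdk8 lox/lox organoids lost exon 2 of Cdk8 through a tamoxifen-activated Cre under the Villin promoter, which is active in intestinal epithelium, and Cdk19 was disrupted with a lentiviral CRISPR guide to its exon 1, followed by picking of single organoids for clonal expansion. The inhibitor experiment held WT organoids given DMSO or Senexin B, an inhibitor of both kinases used at 10 µM, for 16 h or 24 h. CDK8 and CDK19 are the paralogous kinases of the Mediator complex, which links transcription factors to RNA polymerase II. The replicates are called biological triplicates in the labels, without naming animals or cultures, so p-values measure the spread between these libraries.

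Phase II enzymes attach a polar group to a lipophilic compound, its own metabolite or a reactive electrophile, so that the product can be pumped out of the cell. Glutathione S-transferases (GSTs) add glutathione, UDP-glucuronosyltransferases (UGTs) add glucuronic acid from UDP-glucuronate, and cytosolic sulfotransferases (SULTs) add sulfonate from PAPS. In the small intestine these enzymes act on food components, drugs, bile acids and bilirubin in the absorptive epithelium, and many are regulated by NRF2, which binds antioxidant response elements, and by the aryl hydrocarbon receptor, which binds xenobiotic response elements.

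The promoters of 5 members named below are shown first, as RefSeq windows of 250 bases before to 50 bases after a start site on GRCm38.p6. Gsta2, Gstm1 and Gstm3 had the largest fold changes under Senexin B at 24 h, Gsta3 rose less there, and Sult6b2 had the largest fold change in double knockout organoids. Capitals mark a TGACNNNGC match, the core of the antioxidant response element, or a GCGTG match, the core of the xenobiotic response element, on the strand shown or its reverse complement.
Gsta2, chr9:78347096-78347395, minus strand: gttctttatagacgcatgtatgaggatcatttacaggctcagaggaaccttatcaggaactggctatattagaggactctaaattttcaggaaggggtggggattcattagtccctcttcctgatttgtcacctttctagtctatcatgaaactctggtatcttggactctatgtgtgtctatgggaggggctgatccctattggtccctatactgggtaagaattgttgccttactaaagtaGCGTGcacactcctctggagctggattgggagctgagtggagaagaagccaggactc
Gstm1, chr3:108017769-108018068, minus strand: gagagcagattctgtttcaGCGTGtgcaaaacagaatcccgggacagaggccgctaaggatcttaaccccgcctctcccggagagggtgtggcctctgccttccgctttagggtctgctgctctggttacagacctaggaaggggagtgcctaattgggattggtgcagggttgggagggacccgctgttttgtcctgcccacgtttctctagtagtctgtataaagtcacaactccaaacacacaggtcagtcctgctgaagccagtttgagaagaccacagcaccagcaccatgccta
Gstm3, chr3:107969125-107969424, minus strand: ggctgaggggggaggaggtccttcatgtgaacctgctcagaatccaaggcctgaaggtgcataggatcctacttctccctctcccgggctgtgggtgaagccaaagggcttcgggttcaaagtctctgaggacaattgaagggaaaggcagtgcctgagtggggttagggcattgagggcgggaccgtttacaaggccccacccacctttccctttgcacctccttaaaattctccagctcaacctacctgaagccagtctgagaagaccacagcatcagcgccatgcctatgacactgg
Gsta3, chr1:21240335-21240634, plus strand: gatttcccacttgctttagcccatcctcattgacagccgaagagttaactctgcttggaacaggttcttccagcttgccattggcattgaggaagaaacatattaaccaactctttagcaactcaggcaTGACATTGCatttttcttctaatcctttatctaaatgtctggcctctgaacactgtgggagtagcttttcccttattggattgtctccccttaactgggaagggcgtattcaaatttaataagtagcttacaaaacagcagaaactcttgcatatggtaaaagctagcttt
Sult6b2, chr6:142804417-142804716, minus strand: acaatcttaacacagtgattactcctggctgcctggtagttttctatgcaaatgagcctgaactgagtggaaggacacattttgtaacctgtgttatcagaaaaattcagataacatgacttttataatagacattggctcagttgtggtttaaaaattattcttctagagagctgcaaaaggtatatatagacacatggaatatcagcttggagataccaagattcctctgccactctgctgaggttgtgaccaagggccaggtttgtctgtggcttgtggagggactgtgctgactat
Gsta2 and Gstm1 each held 1 GCGTG match, at -7 and -231 from the start, Gsta3 held TGACATTGC at -121, and Gstm3 and Sult6b2 held neither core. The window of Gstk1, which rose more than Gsta3 at 24 h and is not shown, also held neither. Gstm1 had a second, overlapping window that held 1 GCGTG match at -76. A window was given for 37 of the 39 members with a mean of 10 counts in either experiment. TGACNNNGC occurred in at least 1 window of 4 of these 37 members (10.8%: Gsta3, Gstm5, Gstm7 and Mgst1) and of 14.0% of all 27025 genes with a window. GCGTG occurred in 10 of the 37 (27.0%) and in 35.2% of all genes. Matches of the 2 motifs were counted separately, also where they overlapped. The members raised by Senexin B included genes with and without either match.

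Levels are given as CPM, read counts scaled to 1000000 per library with library sizes corrected by the trimmed mean of M-values, and genes are compared with each other only per kilobase of exon that no other gene of the same strand overlaps. In WT organoids the members with the highest level per length were Mgst3, at 253 ± 34.4 CPM per kilobase of exon (mean ± SD, n = 3), Gstm1 at 214 ± 33.3 and Gsta4 at 212 ± 45.1. Mgst3 is a membrane-bound glutathione transferase and peroxidase, and Gsta4 conjugates 4-hydroxynonenal, a product of lipid peroxidation. The ranges of the first 9 members in this order each overlapped that of the next, so their order is not resolved. Within the other families the highest were Gsto1 at 165 ± 8.93, Gstt1 at 64.0 ± 5.20, Gstp3 at 56.8 ± 0.424, Gstk1 at 8.91 ± 1.27, Ugt2b34 at 157 ± 14.2, Ugt1a1 at 142 ± 11.5, Ugt2a3 at 26.0 ± 0.784 and Sult1d1 at 114 ± 8.17 CPM per kilobase. The place of Gstp3 depends on the strand column. In the unstranded column Gstp1 led the Gstp genes in WT, at 80.3 ± 2.00 CPM per kilobase against 56.0 ± 1.12 for Gstp3 (without the library size correction), while the leaders of the other families stayed. Ugt1a1 is the bilirubin-conjugating enzyme and Sult1d1 a sulfotransferase for catecholamines and other phenols.

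**Figure D1:**
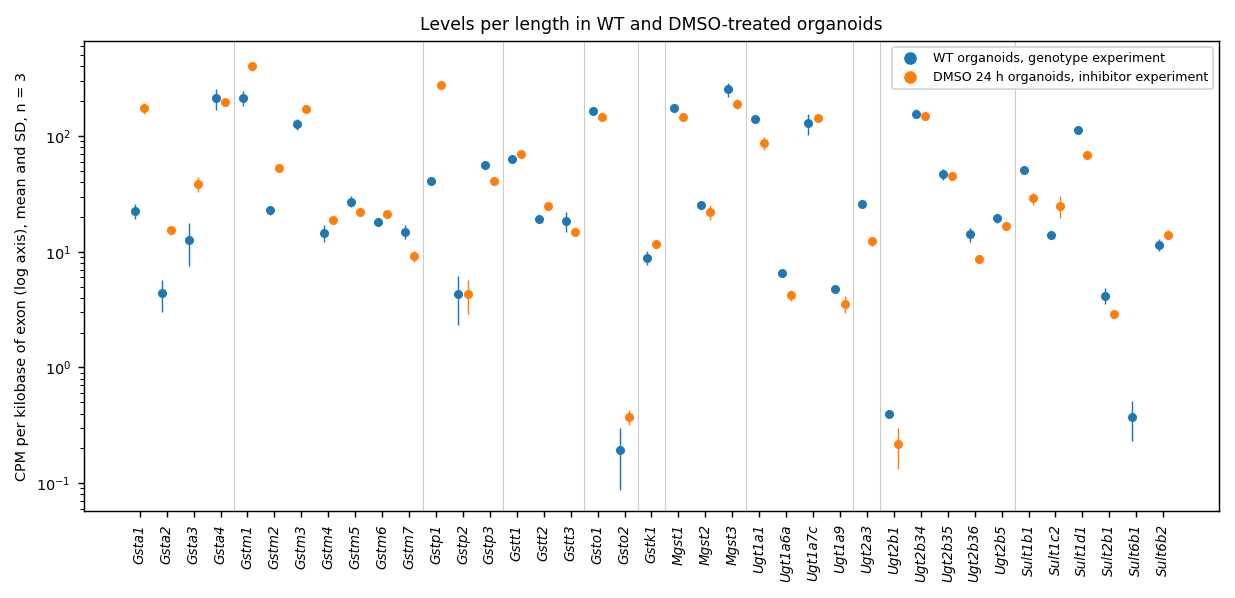
Level of each member with a mean of at least 10 counts, in CPM per kilobase of exon on a log axis, in WT organoids and in organoids given DMSO for 24 h (mean and SD, n = 3 libraries each). Members are grouped by family, and most GST, MGST and UGT families hold a member above 100 CPM per kilobase in at least 1 experiment while Gsto2, Ugt2b1 and Sult6b1 sit below 1.

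In organoids given DMSO the first place was taken by Gstm1, at 563 ± 91.6 CPM per kilobase at 16 h and 400.2 ± 36.0 at 24 h, and the second by Gstp1, at 378 ± 33.9 and 279 ± 15.7. At 24 h each of these 2 ranges stood clear of the next member. Gsta4 at 196 ± 10.4, Gsto1 at 146 ± 5.31, Ugt1a7c at 142 ± 7.37 and Ugt2b34 at 151 ± 4.01 led their families at 24 h, and Gsta1 at 197 ± 26.7 did so among the Gsta genes at 16 h. Mgst3, Gstt1, Gstk1, Ugt2a3 and Sult1d1 led their families in these organoids as in WT organoids. In the genotype libraries, which do not keep the strand, the column used held 33.0% of the strand-assigned reads of Gsta1 and 26.8% of those of Gstp1, so their WT and DMSO levels cannot be compared. Levels of close copies are uncertain, because a 50-base read that fits several genes was not counted. Of the 50-base words of Gsta1, 90.5% also occur in transcripts of other genes, against 49.8% for Gsta2, 54.3% for Gstp2, 33.7% for Gstp1 and 41.7% for Ugt2b5, and the Ugt1a genes share 52.1 to 80.2% of theirs through common exons.

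The tables held 14636861 to 15473180 reads on genes per genotype library and 27075937 to 28405118 per inhibitor library in the strand column used. Only the inhibitor libraries keep the strand, with 87.9 to 90.5% of stranded reads in this column against 49.6 to 49.7% in the genotype libraries. There the reads of a gene and of a gene opposite to it cannot be told apart, which concerns Ugt1a1, Gstm5, Sult2b1 and Sult6b1. Cdk8 counts, which sum all exons, were not lower in libraries labelled Cdk8-/- (42.4 to 57.3 CPM) than in WT (35.8 to 43.2 CPM). Cdk19 stood at 48.8, 28.1 and 28.3 CPM in the libraries labelled Cdk19-/- and at 27.0, 23.8 and 51.7 CPM in those labelled double knockout, against 47.6 to 50.1 CPM in WT, so that Cdk19-/- replicate 1 and double knockout replicate 3 were at the WT level. Counts of called members that include either library are also given without it, as are the list, marker and overlap counts of the double knockout. Of 6 general intestinal epithelial markers all were detected, and 5 mammary markers summed to 1.48 CPM or less, although the labels of the genotype libraries name 4T1, a mammary tumour line, as cell type.

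Senexin B was compared with DMSO at each time to ask what inhibiting both kinases does within a day. A member is said to have risen or fallen, or to be called, where edgeR's quasi-likelihood test, fitted to all genes of the 12 libraries of an experiment, gave a Benjamini-Hochberg adjusted p below 0.05, and every adjusted p below is from that test. Most calls fell among the GSTs. At 24 h 14 of 20 tested cytosolic and kappa GSTs rose and 1 fell, and 2 of 3 MGSTs rose. All 7 Gstm and all 4 Gsta genes had a positive log2 fold change at 24 h, and 5 and 4 of them passed the test. Of 11 tested UGTs 2 rose and 1 fell, and of 5 tested SULTs 1 rose. Over all members, 19 of 39 tested rose and 2 fell at 24 h, beside 14.8% of all tested genes that rose and 12.7% that fell. The 2 that fell became 4 with DESeq2, 5 with no filter, 6 with the replicate block and 7 with only the groups compared, while 18 to 20 rose in these fits. Of all genes 28%, 15%, 36.9% and 30.7% were called in either direction there, against 27.5% in the main fit. At 16 h 16 of 39 rose and 1 fell, beside 4.36% and 3.39% of all genes. The median log2 fold change of the tested members was 0.21 at 16 h and 0.29 at 24 h, and that of all genes was -0.01 and 0.00. The other members had too few reads, so these shares concern only the 39 that passed the filter. In bulk samples such as these, more cells of a type and more RNA per cell cannot be told apart, and markers of epithelial cell types moved in the same comparisons, as given at the end.

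Gstm1, an abundant mu-class GST, was at 749, 753 and 985 CPM in the DMSO libraries and 2013, 1796 and 1962 CPM in the Senexin B libraries at 16 h. At 24 h it was at 529.6, 630.4 and 609 against 2315, 1564 and 1768 CPM. Every Senexin B library was above every DMSO library of either time, with a log2 fold change of 1.21 ± 0.14 (SE) at 16 h and 1.67 ± 0.14 at 24 h (adjusted p = 1.16e-04 and 3.85e-06, edgeR quasi-likelihood test). Gstm3 was at 209, 227 and 236 CPM with DMSO and at 851, 538 and 589.9 CPM with Senexin B at 24 h. Its groups did not overlap, replicate 1 stood above the other 2 treated libraries as it did for Gstm1, and the log2 fold change was 1.02 ± 0.16 at 16 h and 1.56 ± 0.17 at 24 h (adjusted p = 0.00161 and 3.55e-05). Gstm2, Gstm4 and Gstm6 rose less, by a log2 fold change of 0.44, 0.64 and 0.40 at 16 h and 0.55, 0.67 and 0.61 at 24 h. Their calls held in all 6 fits without 1 library at 24 h, but at 16 h in 3, 2 and 2 of 6, with adjusted p up to 0.0711, 0.0875 and 0.119. Gstm5 did not pass the test at either time, with -0.16 ± 0.09 and 0.17 ± 0.09. The 7 Gstm genes all lie on chromosome 3 (Gstm1 at chr3:108012255-108017973 and Gstm3 at chr3:107963696-107969283, GRCm38.p6), and the summed Gstm level went from 1340, 1358 and 1769 CPM to 3212, 2877 and 3125 CPM at 16 h, most of it Gstm1.

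Among the alpha-class GSTs, which also reduce lipid peroxides, Gsta2 (chr9:78331018-78355788) was at 24.4, 21.2 and 27.0 CPM with DMSO and 55.6, 64.8 and 67.9 CPM with Senexin B at 16 h. At 24 h the values were 18.5, 18.8 and 17.6 and 61.8, 47.1 and 55.3 CPM. The groups were far apart at both times, and Gsta2 rose 2.59-fold and 2.99-fold (log2 fold change 1.37 ± 0.11 and 1.58 ± 0.11, adjusted p = 1.04e-05 and 1.49e-06). Gsta4 was at 241, 264 and 240.4 CPM with DMSO and 531, 573 and 521 CPM with Senexin B at 24 h. It rose by 0.82 ± 0.09 at 16 h and 1.12 ± 0.09 at 24 h on the log2 scale (adjusted p = 1.11e-04 and 3.85e-06). Gsta3, the promoter of which holds the TGACATTGC match, rose at 24 h (0.79 ± 0.12, adjusted p = 4.49e-04) and missed the threshold at 16 h (0.41 ± 0.12, adjusted p = 0.0541). Gsta1 rose slightly at 24 h (0.29 ± 0.10, adjusted p = 0.0381), and without DMSO replicate 3 its adjusted p was 0.149. Reads of Gsta1 and Gsta2 that fit both were not counted for either.

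**Figure D2:**
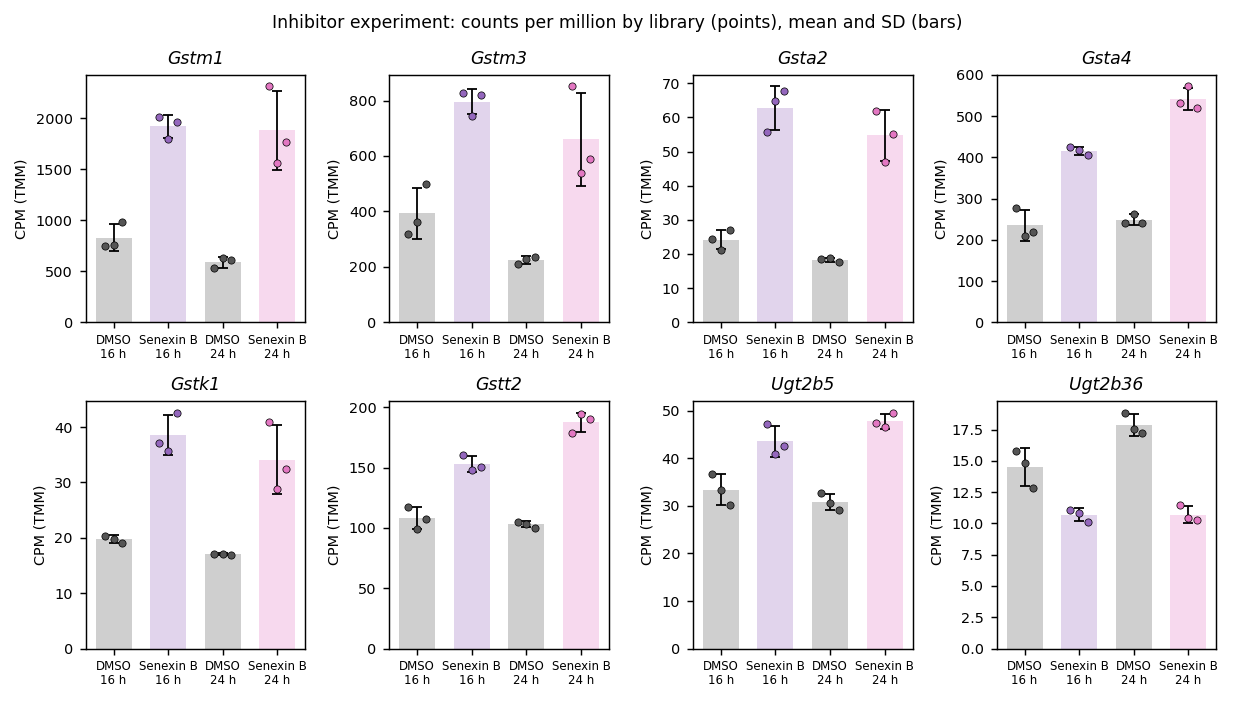
CPM of 8 members in each library of the inhibitor experiment (points), with the group mean (bar from 0) and SD, n = 3. The 6 GSTs and Ugt2b5 are higher in every Senexin B library than in every DMSO library of the same time, and Ugt2b36 is lower in every one.

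The mitochondrial and peroxisomal Gstk1 was at 20.4, 19.8 and 19.1 CPM with DMSO and 37.1, 35.8 and 42.6 CPM with Senexin B at 16 h. Its 2 groups did not overlap at either time and it rose 1.95-fold at 16 h and 2.00-fold at 24 h (adjusted p = 1.47e-04 and 4.93e-05). Gstt2, a theta-class GST, was at 105, 103 and 100.3 CPM with DMSO and 179, 194 and 190.0 CPM with Senexin B at 24 h. It rose by 0.50 ± 0.07 and 0.87 ± 0.07 on the log2 scale (adjusted p = 4.75e-04 and 3.62e-06). Mgst3 rose by 0.55 ± 0.08 and 0.67 ± 0.08 (adjusted p = 6.90e-04 and 6.70e-05), and its relative Mgst2 was at -0.01 ± 0.11 at 24 h without passing the test. Gstp1, the pi-class enzyme, rose by 0.39 ± 0.07 and 0.54 ± 0.07 (adjusted p = 0.00532 and 2.14e-04). Gstp3 went the other way at 24 h, from 39.6, 37.9 and 34.7 CPM to 30.7, 24.4 and 24.6 CPM, a log2 fold change of -0.50 ± 0.12 (adjusted p = 0.00705). The remaining called GSTs, Gstp2 at 16 h, Gstt1 at both times and Gsto1 and Mgst1 at 24 h, rose by 0.29 to 0.92 on the log2 scale. Without 1 library of a group the adjusted p of Gstp2 at 16 h reached 0.136 and that of Gstt1 at 16 h 0.172.

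Of the UGTs, which in the 2b family conjugate steroids, bile acids and drugs, Ugt2b5 was at 32.7, 30.7 and 29.2 CPM with DMSO and 47.4, 46.5 and 49.6 CPM with Senexin B at 24 h. It rose by 0.38 ± 0.08 and 0.63 ± 0.08 on the log2 scale (adjusted p = 0.0105 and 1.31e-04). Ugt2b36 was at 18.9, 17.5 and 17.3 CPM with DMSO and 11.5, 10.4 and 10.2 CPM with Senexin B at 24 h. Its groups did not overlap at either time and it fell, with -0.44 ± 0.10 at 16 h and -0.74 ± 0.10 at 24 h (adjusted p = 0.0120 and 1.29e-04). Ugt2b35 was called higher at both times by small amounts, 0.21 ± 0.06 and 0.17 ± 0.06, and lost its call at 24 h in each of 6 fits without 1 library and at 16 h in 5 of 6. Ugt2b34, the most abundant member of its family, was at -0.10 ± 0.08 at 24 h (adjusted p = 0.363). None of the Ugt1a genes and not Ugt2a3 passed the test at either time.

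Of the SULTs, Sult6b2 rose at 16 h, from 45.7, 41.2 and 39.0 CPM to 54.8, 62.7 and 60.8 CPM (0.50 ± 0.11, adjusted p = 0.0138), a call that held in 2 of 6 fits without 1 library (adjusted p up to 0.0617). At 24 h its groups overlapped, at 33.4, 28.5 and 29.4 against 43.9, 32.0 and 32.3 CPM (0.24 ± 0.12, adjusted p = 0.132). Sult1c2, a phenol sulfotransferase, rose at 24 h by 0.58 ± 0.16 (adjusted p = 0.0163), with 88.1 CPM in replicate 1 above 61.0 and 57.3 CPM in the others, and an adjusted p of 0.0741 without that replicate. At 16 h the count of 17 called members was 11 without DMSO replicate 2, 11 without Senexin B replicate 1 and 9 without Senexin B replicate 3, while at 24 h it stayed at 19 or 20. The share of all genes called fell from 7.75% to 5.15%, 4.78% and 4.3% in these fits at 16 h. At 24 h it fell from 27.5% to 16.9 to 24.2%. Sult1b1, Sult1d1 and Sult2b1 did not pass the test, with -0.27 ± 0.12, 0.08 ± 0.08 and -0.03 ± 0.08 at 24 h. Senexin B and DMSO libraries of the same time and replicate number tended to deviate together, most of all replicate 1. Some differently numbered pairs did so more than the weaker same-numbered pairs, so the pairing is uncertain. With the replicate number as a block, Gsta3 (0.41, adjusted p = 0.00706) and Gstm7 (0.22) were also called higher at 16 h. At 24 h the block added Gstm7 as higher (0.29, adjusted p = 0.00604), and Sult1b1 (-0.26, adjusted p = 0.00679), Ugt1a1 (-0.28, adjusted p = 0.0257), Ugt1a9 (-0.61, adjusted p = 0.0386) and Ugt2a3 (-0.27, adjusted p = 0.0105) as lower, and it removed no call at either time.

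Whether the effect of Senexin B differed between 24 h and 16 h was tested for each member. By edgeR 0 of 39 members were called, beside 0% of all genes, and by DESeq2 0, beside 0.472%. An unadjusted p under 0.05 was reached by 9 members, beside 12.9% of all genes. The 3 with the smallest p were Gstt2 (0.37 ± 0.10, adjusted p = 0.264), Gstm5 (0.34 ± 0.12, adjusted p = 0.311) and Gstm1 (0.46 ± 0.19, adjusted p = 0.344). The organoids given DMSO also changed between the times. At 24 h 2 members were higher than at 16 h and 11 lower, of 39, beside 4.52% and 6.59% of all genes. Those lower were Gsta2, Gsta3, Gstm1, Gstm3, Gstm4, Gstm6, Gstm7, Gstp1, Mgst3, Sult2b1 and Sult6b2, from -0.27 for Mgst3 to -0.81 for Gstm3 on the log2 scale. Gstp1 had the smallest p, at 591, 529 and 634 CPM at 16 h and 406, 455 and 436 CPM at 24 h (-0.44 ± 0.07, adjusted p = 0.00444). Sult1d1 (0.43 ± 0.08, adjusted p = 0.00488) and Ugt1a1 (0.50 ± 0.11, adjusted p = 0.0135) were higher. The DMSO libraries at 24 h are also the controls of the Senexin B effect at 24 h, so the 2 sets of values are not independent, and the count of 13 dropped to 4 without DMSO 16 h replicate 3 and to 6 or 7 without any 1 of the DMSO 24 h libraries. The share of all genes called dropped as well, from 11.1% to 2.75% and to 3.33 to 6.96%.

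In the genotype experiment Cdk8-/- organoids were compared with WT to ask what losing 1 kinase does. Sult6b2 rose and 5 members fell, of 40 tested, beside 2.79% of all genes higher and 2.36% lower. The members that fell were Ugt1a1, Ugt1a6a, Ugt2b36, Gstp3 and Gstt1. Ugt1a1 (chr1:88211959-88218997) was at 126, 141 and 121 CPM in WT and 69.6, 64.3 and 76.7 CPM in Cdk8-/- libraries. The groups were clearly separate, with a fold of 0.542 and a log2 fold change of -0.88 ± 0.11 (adjusted p = 0.00133), and it kept this call in every fit without 1 library. Ugt1a6a, which conjugates planar phenols, was at 15.3, 13.3 and 13.6 CPM and 5.59, 9.69 and 8.55 CPM (-0.82 ± 0.21, adjusted p = 0.0453). Ugt1a7c, a neighbour in the same gene cluster, was at 0.14 ± 0.19 and did not pass the test. Ugt2b36 was at 27.0, 26.5 and 33.7 CPM in WT and 13.0, 20.0 and 11.8 CPM in Cdk8-/- libraries (-0.96 ± 0.25, adjusted p = 0.0452). Gstp3 and Gstt1 fell by a similar amount, -0.44 ± 0.09 and -0.44 ± 0.11 (adjusted p = 0.0207 and 0.0492). Apart from Ugt1a1 each of these calls was lost in some fit without 1 library, and 1 member stayed called without any 1 of the WT libraries or without Cdk8-/- replicate 3, and 3 without Cdk8-/- replicate 1. The share of all genes called fell too, from 5.15% to 1.23%, 1.61% and 2.09% without a WT library. It was 2.63% without Cdk8-/- replicate 3 and 2.91% without Cdk8-/- replicate 1.

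Double knockout organoids were compared with WT for the loss of both kinases. Here 10 of 40 tested members rose and 0 fell, beside 9.41% of all genes that rose and 7.9% that fell. On the lower side 3 members had an unadjusted p under 0.05, beside 15.4% of all genes, and DESeq2 called 1. Those that rose were Sult6b2, Sult1b1 and Sult2b1, the GSTs Gsta2, Gstp1, Gstp2, Gstt3, Gsto1 and Gsto2, and Ugt2b34. None of the 7 Gstm genes passed the test. Sult6b2 (chr6:142785204-142804502) was at 21.7, 25.7 and 27.5 CPM in WT and 128, 127 and 68.4 CPM in double knockout libraries, and at 46.2, 59.0 and 73.6 CPM in Cdk8-/- and 16.2, 8.39 and 11.03 CPM in Cdk19-/- libraries. The double knockout and Cdk8-/- libraries were all above WT and the Cdk19-/- libraries all below, with a log2 fold change of 2.11 ± 0.27 in the double knockout (adjusted p = 7.57e-04) and 1.26 ± 0.27 in Cdk8-/- (adjusted p = 0.0216). Sult1b1, which sulfonates phenols and thyroid hormones, lies at chr5:87513339-87538195 and was at 136, 144 and 143 CPM in WT and 236, 222 and 199.7 CPM in the double knockout. It rose 1.55-fold with a narrow spread in both groups (0.63 ± 0.11, adjusted p = 0.00246). Sult2b1, which sulfonates cholesterol, was at 14.9, 15.1 and 19.5 and 42.3, 32.7 and 22.9 CPM (0.99 ± 0.25, adjusted p = 0.0195), with the lowest knockout library just above the highest WT library.

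**Figure D3:**
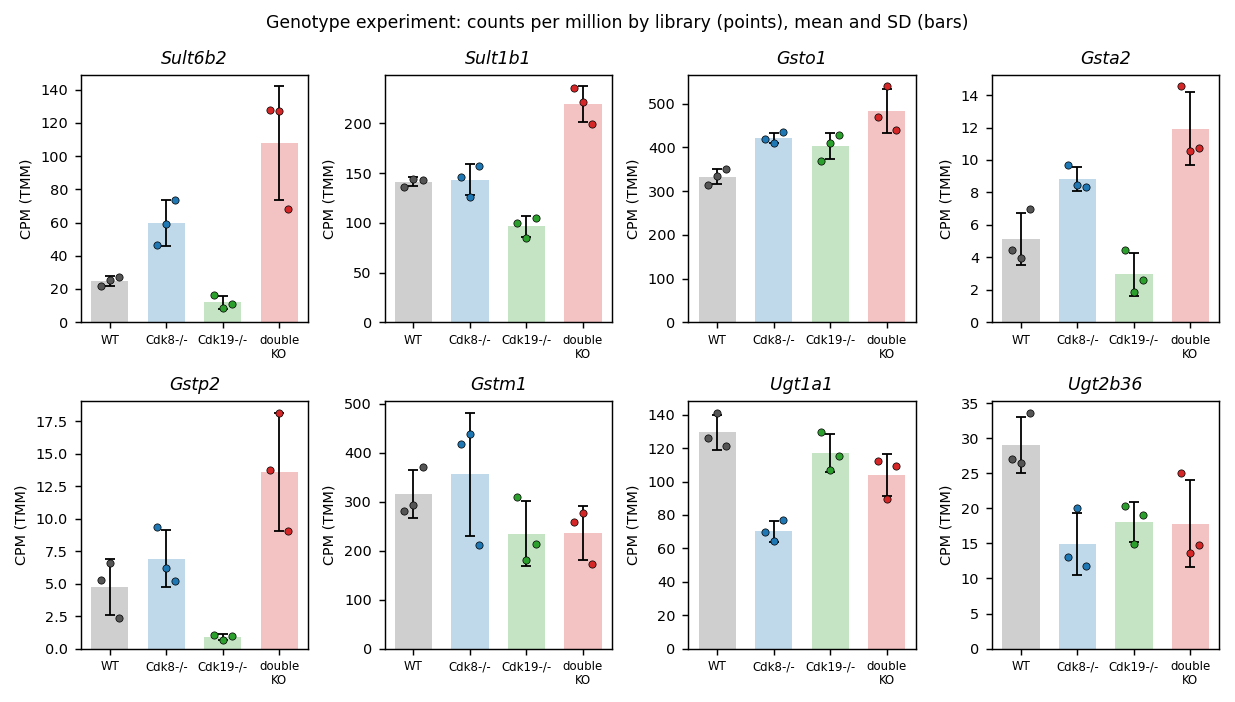
CPM of 8 members in each library of the genotype experiment (points), with the group mean (bar from 0) and SD, n = 3. Sult6b2, Sult1b1, Gsto1, Gsta2 and Gstp2 have their highest mean in double knockout organoids, Gstm1 overlaps between Cdk8-/- and WT, and Ugt1a1 is lowest in Cdk8-/- organoids.

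Gsto1, an omega-class thioltransferase and dehydroascorbate reductase, was at 314, 335 and 350.4 CPM in WT and 469, 539.7 and 440.1 CPM in the double knockout. All knockout libraries were above all WT libraries, with 0.54 ± 0.10 on the log2 scale (adjusted p = 0.00335). Gsta2 was at 4.44, 3.99 and 6.99 and 14.5, 10.5 and 10.7 CPM (1.22 ± 0.28, adjusted p = 0.0131) and Gstp2 at 5.32, 6.60 and 2.38 and 13.7, 18.1 and 9.03 CPM (1.51 ± 0.36, adjusted p = 0.0140). Both are low genes with close copies, and neither group overlapped WT. The other 4 rose by 0.36 (Ugt2b34), 0.38 (Gstp1), 0.40 (Gstt3) and 1.40 (Gsto2, at 1.32 CPM or less in every genotype library) on the log2 scale. Without double knockout replicate 3, where Cdk19 was at the WT level, 11 members were called, with Sult6b2 at 2.35 and Gstm7, Sult1c2 and Ugt1a7c added and Gstt3 and Gsto2 lost. Leaving out WT replicate 1 gave 5 called members, WT replicate 2 gave 4, double knockout replicate 1 gave 6, of which 5 rose and Ugt2b36 fell (-1.02, adjusted p = 0.0131), and double knockout replicate 2 gave 6 that rose. The share of all genes called fell too, from 17.3% to 8.47%, 9.13%, 12.6% and 12.1% in these fits. Without double knockout replicate 3 it was 15.4%. Sult6b2, Sult1b1 and Gsto1 kept their calls in every fit without 1 library.

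In Cdk19-/- organoids 0 of 40 tested members were called by edgeR, beside 0% of all genes, while DESeq2 called 4, beside 2.01%, and 13 members had an unadjusted p under 0.05, beside 10.8%. Of the 40, 34 had a negative log2 fold change, as had 54.1% of all genes, and 16 had every Cdk19-/- library below every WT library, as had 10.8% of all genes. Only Gsto1 and Gstp1 had every library above WT, as had 9.13% of all genes. Cell markers moved beside these values. The summed enterocyte markers were at 6870 to 9317 CPM in Cdk19-/- libraries, all below the 9800.1 to 10467 CPM of WT, and the summed stem cell markers at 3618 to 5537 CPM, all above the 2748 to 3084 CPM of WT. The part of cell makeup was not tested. The 3 with the smallest p were Gstp2, Sult1b1 and Sult6b2. Gstp2 was at 5.32, 6.60 and 2.38 CPM in WT and 1.08, 0.651 and 0.991 CPM in Cdk19-/- libraries (-2.39 ± 0.43, adjusted p = 0.0971). Sult1b1 was at 99.8, 84.7 and 105 CPM in Cdk19-/- libraries, all below its WT values (-0.55 ± 0.11, adjusted p = 0.110). Sult6b2 was at -1.07 ± 0.28 (adjusted p = 0.181). Without Cdk19-/- replicate 1, where Cdk19 was at the WT level, 7 members were called, all lower, beside 3.27% of all genes called. They were Gsta2 (-1.19), Gsta3 (-1.47), Gstp2 (-2.52), Mgst3 (-0.69), Sult1b1 (-0.56), Sult2b1 (-1.13) and Sult6b2 (-1.35), with adjusted p from 0.0260 to 0.0477.

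Between double knockout and Cdk8-/- organoids 0 of 40 members were called by edgeR, beside 0.0256% of all genes. DESeq2 called 6, beside 2.64% of all genes, and 15 had an unadjusted p under 0.05, beside 15.5%. Without double knockout replicate 3 edgeR also called 0, and without Cdk8-/- replicate 3 it called 4, all higher, beside 5.28% of all genes. The 3 with the smallest p were Sult1b1 (0.61 ± 0.11, adjusted p = 0.0842), Ugt1a1 (0.56 ± 0.11, adjusted p = 0.130) and Ugt2b34 (0.51 ± 0.11, adjusted p = 0.135). Each of the 3 was higher in every double knockout library than in every Cdk8-/- library. The combined effect is the log2 fold change of double knockout organoids minus the added log2 fold changes of Cdk8-/- and Cdk19-/- organoids. Of the 40 tested members 1 was called, beside 0.0256% of all genes. It was Sult1b1, with 1.16 ± 0.15 (adjusted p = 0.0241), higher in the double knockout than the sum of 0.02 ± 0.11 in Cdk8-/- and -0.55 ± 0.11 in Cdk19-/-. It lost the call in 7 of 12 fits without 1 library, the highest adjusted p being 0.163 without WT replicate 2. Gstp2 had the largest estimate, 3.36 ± 0.56, which missed the threshold (adjusted p = 0.0583). An unadjusted p under 0.05 was reached by 22 members, beside 14.5% of all genes, and 34 of 40 estimates were positive, beside 49.4%. Without Cdk19-/- replicate 1 9 members were called, with Sult1b1 at 1.18, and Sult6b2, Gstp2, Gsta2, Sult2b1, Mgst1, Mgst3, Ugt1a1 and Ugt2a3 added, while the share of all genes called rose to 2.93%. Without double knockout replicate 2 or 3 there were 4, beside 0.447% and 0.265% of all genes, and without Cdk8-/- replicate 3 there were 6, beside 2.47%.

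**Figure D4:**
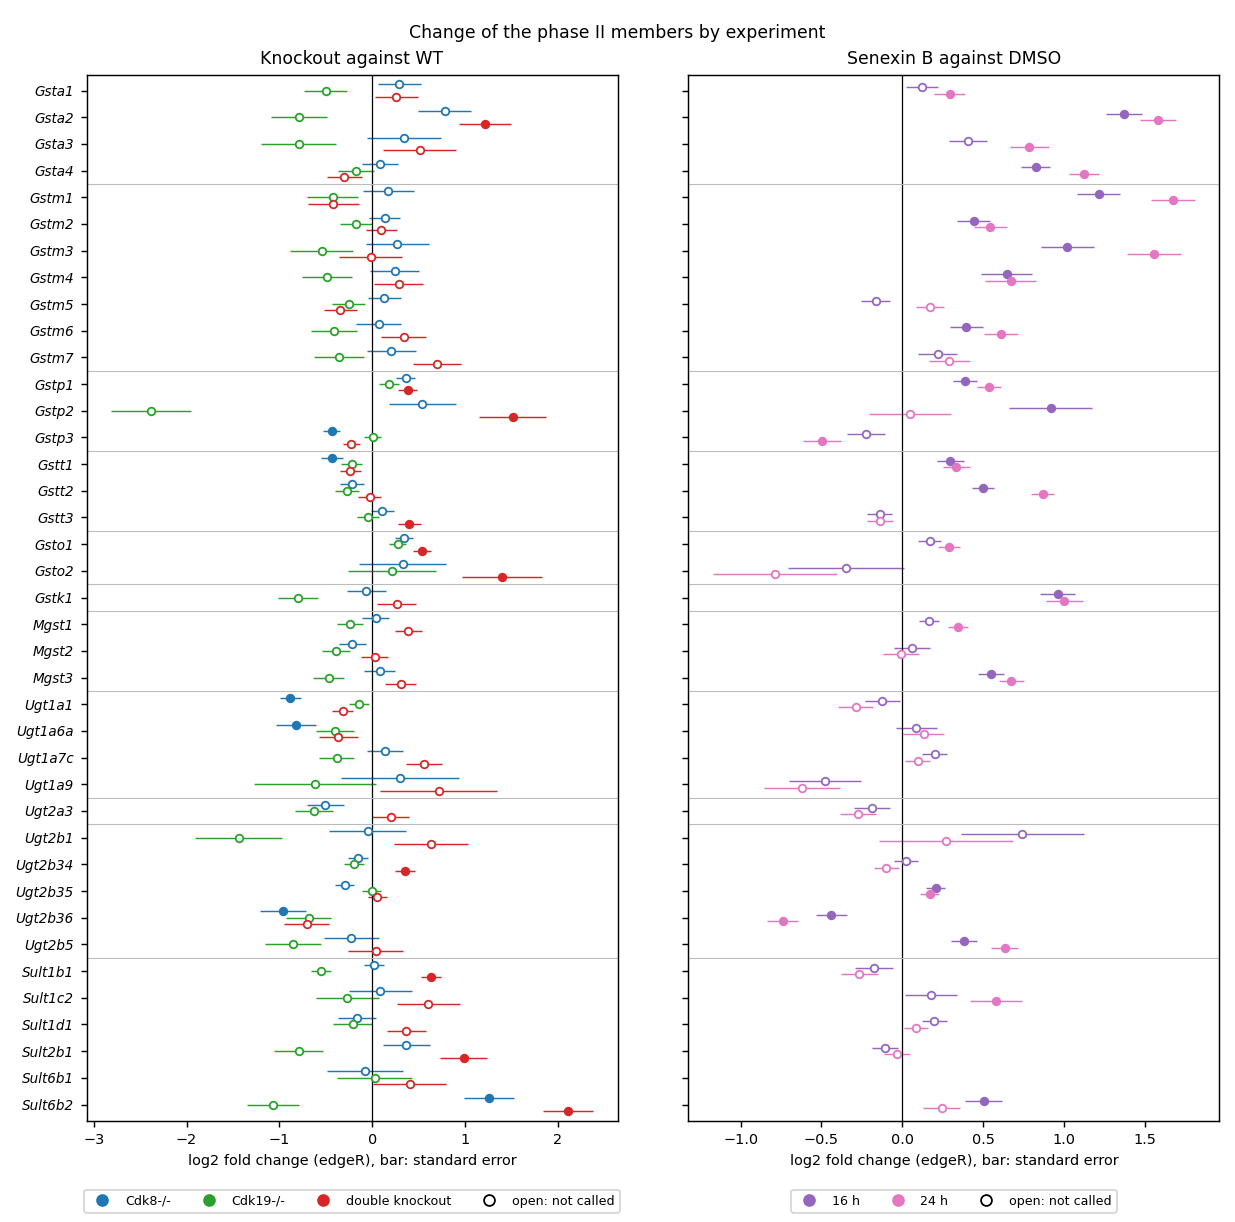
Log2 fold change of each member with its standard error, in knockout organoids against WT (left) and with Senexin B against DMSO (right). Filled points are called at an adjusted p below 0.05, and the Gsta and Gstm genes sit to the right of 0 under Senexin B at 24 h while Gstm1 is at -0.42 in the double knockout.

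The 2 experiments share no libraries, and their called members were set side by side. Of the 10 members that rose in the double knockout, 3 (30.0%) also rose under Senexin B at 24 h, Gsta2, Gsto1 and Gstp1, which is 15.8% of the 19 that rose there. At 16 h 4 were shared, Gsta2, Gstp1, Gstp2 and Sult6b2 (40.0% of the 10 and 25.0% of the 16). These shares were not above those of the members in general, since of the 38 members tested in both experiments 19 rose under Senexin B at 24 h and 16 (42.1%) at 16 h. Over all genes, 15.7% of those that rose in the double knockout also rose at 24 h and 11.8% at 16 h, beside 15.5% and 4.49% of the genes tested in both. Without double knockout replicate 3 the shared members were 4 of 11 at each time (36.4%), with Sult1c2 added at 24 h. Gsta2 was raised in all 3 comparisons, by 1.22, 1.37 and 1.58 on the log2 scale. Gstm1 was at 280.3, 294 and 371 CPM in WT and 258, 276 and 172 CPM in double knockout libraries. The latter were all lower, by an amount that did not pass the test (-0.42 ± 0.28, adjusted p = 0.318, and -0.24 with adjusted p = 0.609 without replicate 3), beside the rise of 1.67 under Senexin B at 24 h. Sult1b1 rose in the double knockout and was at -0.27 ± 0.12 under Senexin B at 24 h. Both members that fell under Senexin B at 24 h in the fit without the replicate block, Gstp3 and Ugt2b36, also fell in Cdk8-/- organoids, where they are 40.0% of the 5 that fell, beside 18.9% of all genes that fell there. With the replicate block in the inhibitor experiment alone 6 members fell at 24 h, and Ugt1a1, which fell in Cdk8-/- organoids, is then shared as well. With the block in the genotype experiment too, Ugt2b36 lost its call in Cdk8-/- organoids (adjusted p = 0.0693). The overlap of all genes was not counted with the block. In the double knockout Gstp3 was at -0.23 ± 0.09 (adjusted p = 0.109) and Ugt2b36 at -0.71 ± 0.24 (adjusted p = 0.0657). The library type, the duration and the way of removing kinase activity all differ between the experiments and cannot be told apart, and the difference between the experiments was not tested.

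The genes that feed and follow conjugation were counted from lists chosen with the members, and each count is read beside the share of all genes called in the same comparison. That share was 14.8% higher and 12.7% lower under Senexin B at 24 h, 9.41% and 7.9% in the double knockout, and 4.52% and 6.59% with DMSO at 24 h against 16 h. A count near these shares is no result about a list, and its values then only describe the genes named. Of 19 genes of glutathione synthesis and recycling, 4 rose and 2 fell under Senexin B at 24 h, close to the shares of all genes. Glutathione reductase, Gsr, rose (0.43 ± 0.09, adjusted p = 0.00399), as did the brush border aminopeptidase Anpep (0.86 ± 0.23, adjusted p = 0.0136), while the dipeptidase Dpep1 fell (-1.68 ± 0.27, adjusted p = 6.50e-04). In the double knockout 7 rose and 2 fell. Both subunits of glutamate-cysteine ligase, the first step of glutathione synthesis, rose there (Gclc 0.27 ± 0.08, adjusted p = 0.0355, Gclm 0.50 ± 0.10, adjusted p = 0.00500). Under Senexin B at 24 h Gclc was at 0.25 ± 0.13, adjusted p = 0.167 and Gclm at -0.05 ± 0.08, adjusted p = 0.708. Of 18 NRF2 targets that are no members, 5 rose and 2 fell under Senexin B at 24 h, with Cbr3 (1.08 ± 0.16, adjusted p = 3.20e-04) and Nqo1 (0.43 ± 0.12, adjusted p = 0.0208) among those that rose and the haem oxygenase Hmox1 (-1.33 ± 0.22, adjusted p = 7.80e-04) among those that fell. In the double knockout 5 rose and 1 fell, with Hmox1 higher (0.87 ± 0.27, adjusted p = 0.0412) and Cbr3 lower (-2.14 ± 0.57, adjusted p = 0.0239). With DMSO 0 of these 18 were higher and 9 lower at 24 h than at 16 h, Cbr3 most of all (-1.37 ± 0.16, adjusted p = 9.55e-04), at the same time as 11 members were lower. Nfe2l2, which encodes NRF2, was at 0.06 ± 0.06, adjusted p = 0.517 under Senexin B at 24 h.

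Of 5 tested aryl hydrocarbon receptor targets that are no members, 2 rose in the double knockout, Cyp1a1 (1.06 against 0.0453 CPM on average, adjusted p = 0.0199) and Cyp1b1 (1.91 ± 0.59, adjusted p = 0.0433), both at a mean below 2 CPM. Under Senexin B at 24 h Cyp1a1 was at 0.39 ± 0.44, adjusted p = 0.540. The receptor gene Ahr rose in the double knockout (0.63 ± 0.16, adjusted p = 0.0196), as did Nr1i2 (0.35 ± 0.11, adjusted p = 0.0449), which encodes the xenobiotic receptor PXR, and of 19 regulators 5 rose and 3 fell. Under Senexin B at 24 h 3 regulators fell, Arnt, Hnf4g and Nr3c1. Of 10 tested genes for the supply and removal of PAPS and sulfate, 3 rose in the double knockout, Arsb, Arsa and Slc26a2. Of these the sulfate transporter Slc26a2 (0.79 ± 0.17, adjusted p = 0.00818) also rose under Senexin B at 16 h (0.51 ± 0.10, adjusted p = 0.00436). It was not called at 24 h, where of this list only Bpnt1 was called, as higher. Of 7 genes for the supply of UDP-glucuronate and its removal, 1 rose in the double knockout, Slc35d1, and Ugdh, which makes it, was at 0.73 ± 0.26, adjusted p = 0.0760 in the double knockout and -0.16 ± 0.09, adjusted p = 0.168 under Senexin B at 24 h. Of 9 listed efflux transporters, not all of them specific for conjugates, 3 rose in the double knockout, Abcb1a, Abcb1b and Abcc4. Abcb1a rose there (0.80 ± 0.13, adjusted p = 0.00198) and under Senexin B at both times (0.95 ± 0.12, adjusted p = 2.03e-04 at 16 h). Among 9 other conjugating enzymes that were tested, the methyltransferases Tpmt (-0.36 ± 0.09, adjusted p = 0.0189) and Inmt and the sulfurtransferase Mpst fell in the double knockout and in Cdk8-/- organoids. A repeat of these counts without double knockout replicate 3 was chosen after seeing the data, and there 8.41% of all genes rose and 7.04% fell. Glutathione genes then gave 7 higher and 0 lower, NRF2 targets 5 and 0, regulators 2 and 3, sulfate genes 3 and 0, UDP-glucuronate genes 1 and 0 (Gusb, not Slc35d1), efflux transporters 3 and 0, and the other conjugating enzymes 1 and 3. Cyp1a1 and Ahr kept their calls, while Hmox1 (adjusted p = 0.0620), Cbr3 (0.0563), Cyp1b1 (0.124) and Nr1i2 (0.0958) did not.

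Markers of cell types within the epithelium moved in the same comparisons, beside the shares of all genes given above. All 7 Paneth cell markers rose in Cdk8-/- and in double knockout organoids, and 5 of 7 fell under Senexin B at 24 h. The summed Paneth level was 1308 to 1724 CPM in WT, 4017 to 5366 CPM in Cdk8-/- and 2598 to 5267 CPM in double knockout libraries, and went from 2897 to 3097 CPM with DMSO to 1336 to 1814 CPM with Senexin B at 24 h. The goblet cell markers also rose in part, 5 of 7 under Senexin B at 24 h, with 1 lower, 3 of 7 in Cdk8-/- organoids and 2 of 7 in the double knockout. Under Senexin B at 16 h 4 of 7 goblet and 3 of 7 enteroendocrine markers rose and 2 of 7 Paneth markers fell, and of 11 enterocyte markers 2 rose and 1 fell. Of 6 stem cell markers 5 fell in the double knockout, and Lgr5 fell in Cdk8-/- organoids and under Senexin B at both times. Of 7 enteroendocrine markers 4 rose under Senexin B at 24 h, and of 5 tested tuft cell markers 3 rose there and 2 fell in the double knockout. Of 11 enterocyte markers 7 rose in the double knockout, where their sum was 16057 to 21669 CPM against 9800.1 to 10467 CPM in WT. In Cdk8-/- libraries 2 rose, Anpep and Apoa4, and the sum of 12637 to 13491 CPM was also above WT. Of these markers 4 rose and 1 fell under Senexin B at 24 h, with a sum of 5403 to 5969 CPM against 5385 to 5874 CPM with DMSO. Without double knockout replicate 3, 5 Paneth, 2 goblet and 7 enterocyte markers rose and 5 stem and 3 tuft cell markers fell. The part of cell makeup in the changes of the members was not tested. The summed hepatocyte markers were at 1175 to 1436 CPM with Senexin B and 1585 to 1741 CPM with DMSO at 24 h, with Serpina1a at 0 in both, and 3 of 4 tested fell. Their sum was also 1766 to 1953 CPM in WT, so most of these genes are expressed in the organoids, and liver cells were not tested for. Markers of endothelium and immune cells stayed below 5 CPM in sum in every library, and the 6 mesenchymal markers summed to 4.35 to 5.22 CPM with DMSO at 24 h, where 3 were at 0, and to 6.23 to 8.55 CPM with Senexin B, where none was at 0 in all libraries and Vim was called higher.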

How the data were processed

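RNA of 24 organoid libraries was sequenced as single-end reads of 50 bases. The authors aligned them with STAR 2.6.0 (2.6.0c in the submitters' processing notes) to GRCm38.p6 with Ensembl annotation, and deposited per-gene read counts without normalisation, in which reads that fit several places are left out. The fourth column was used, which is the reverse strand column. The genotype libraries hold about equal reads in both strand columns, so it takes about 1 of 2 reads there, and the unstranded column was an alternative.

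Each experiment was fitted on its own with edgeR 4.0.16 in R 4.3.3 as 1 model of 12 libraries (trimmed mean of M-values, default expression filter, quasi-likelihood test, Benjamini-Hochberg adjustment, threshold 0.05), with 15602 and 15467 genes tested. An SE is the log2 fold change divided by the square root of its F statistic. DESeq2 1.42.0, its size factors, no filter, a minimum of 10 counts in every library, a replicate block, fits of only the groups compared, and leaving out each library were the alternatives. List and overlap counts without double knockout replicate 3 and WT levels per length from the unstranded column were added after seeing the data. The scripts were tested on simulated counts. Members, lists and the rule for named genes (in each comparison the called members, at most the 10 with the smallest p, or the 3 with the smallest p where none was called, and the highest member of each family) were chosen with earlier results of these data known. Members and list genes named beyond that rule were chosen after their values were seen. No library was dropped or imputed in the values given, unless said.

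Replicate numbers were taken to pair Senexin B with DMSO libraries within each time, which is uncertain. Deviations from group means correlated within each same-numbered pair at 0.303, 0.101 and 0.110 at 16 h and 0.377, 0.137 and 0.187 at 24 h. The highest correlation of a differently numbered pair was 0.154 at 16 h and 0.147 at 24 h. Only replicate 1 at 16 h and replicates 1 and 3 at 24 h were above it. Between genotypes and between the DMSO times not all same-numbered pairs correlated positively, and they were not taken as paired. Protocol text shared by all samples names oligo(dT) selection and 4-hydroxytamoxifen, while the inhibitor libraries are also described as depleted of ribosomal RNA.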

Additional observations from a re-analysis of the deposited data

Results flagged for a closer look

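The effect of the Cdk19 knockout on Sult1b1 was called different between organoids with and without Cdk8, a call that held in 5 of 12 fits without 1 library (adjusted p up to 0.163) and was lost with a filter of 10 counts in every library. The difference, tested as the combined effect of both knockouts, was 1.16 on the log2 scale (SE 0.15, edgeR quasi-likelihood test, adjusted p = 0.0241). Sult1b1 was lower in all 3 Cdk19-/- libraries than in WT and higher in all 3 double knockout libraries than in Cdk8-/-. Cdk19 was at the WT level in 1 library of each labelled knockout, at 48.8 CPM in Cdk19-/- replicate 1 and 51.7 CPM in double knockout replicate 3. Without the first the difference was 1.18 (adjusted p = 0.00753) and without the second 1.23 (adjusted p = 0.0377). Groups of 3 libraries were not examined for single far values.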

How the results depend on the processing

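Of 1020 alternative values of the named members, 840 kept their side of the threshold, 161 lost the call, 19 gained one and 0 changed direction. Ugt1a1 in Cdk8-/-, Gsto1, Sult1b1 and Sult6b2 in the double knockout, 8 of 17 members at 16 h and 18 of 21 at 24 h of Senexin B were called in every setting run. With DESeq2 4 members were called in Cdk19-/-, 6 between double knockout and Cdk8-/- and 8 for the combined effect, beside 2.01%, 2.64% and 3.18% of all genes. With no filter these were 8, 5 and 11, beside 1.61%, 1.2% and 1.9% of all genes. With 10 counts in every library the combined effect had 0, beside 0% of all genes. With only the groups compared, DMSO at 24 h against 16 h had 6, beside 2.57% of all genes. This kind of fit could not be made for the combined effect or the effect between times. Genotype replicate numbers were not paired, and with the replicate block Cdk8-/- had 3 called members and the combined effect 2, while the double knockout had 9 (Gstt1, Ugt1a6a and Ugt2b36 lost in Cdk8-/-, Gsto2 lost in the double knockout, Gstp2 gained for the combined effect). Beside these counts 4.54%, 0.0513% and 16.8% of all genes were called. The replicate block gave 19 and 26 for Senexin B at 16 h and 24 h. Beside them 14.8% and 36.9% of all genes were called, against 7.75% and 27.5% without the block. DMSO libraries at 24 h and 16 h were not paired by number (correlations of 0.366, -0.0503 and 0.284), and the block gave 18 there (4 higher, 14 lower), adding Gstm2, Gstt3, Sult1c2, Ugt2a3 and Ugt2b36. Of all genes 21.2% were called there with the block, against 11.1% without it. The block changed no other call of a member. Leaving out 1 library gave 1 to 5 members in Cdk8-/-, 0 to 7 in Cdk19-/-, 4 to 11 in the double knockout, 0 to 4 between double knockout and Cdk8-/-, 0 to 9 for the combined effect, 9 to 19 and 19 to 20 for Senexin B at 16 h and 24 h, and 4 to 14 for DMSO at 24 h against 16 h. The share of all genes called varied too. In the same order it was 1.23 to 4.39%, 0 to 3.27%, 8.47 to 15.4%, 0.0188 to 5.28%, 0 to 2.93%, 4.18 to 11.6%, 16.9 to 24.2% and 2.75 to 14.6%. The cause of these shifts was not tested. Members with few reads, such as Gsto2, Ugt2b1 and Sult6b1, are imprecise at this depth.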
